A study of Mus musculus with 6 samples.

Results

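The 10 genes described here encode parts of the tight junction: the claudins Cldn1, Cldn3, Cldn4, Cldn6, Cldn7, Cldn12 and Cldn23, the transmembrane protein occludin (Ocln), the scaffold ZO-1 (Tjp1) and the adhesion receptor JAM-A (F11r). They were chosen by name as the rows of the count table that carry these symbols, and they are 10 of 21240 genes counted. All 3 groups came from NMuMG cells, an epithelial line from the normal mouse mammary gland, which were kept for 6 h without serum and insulin before treatment. The 3 groups are vehicle for 2 h (HCl or Tris-HCl with BSA, as different labels put it), TGFβ1 at 5 ng/ml for 2 h and TGFβ1 at 5 ng/ml for 12 h, and each holds 2 biological replicates. No genetic change was made to the cells of these groups, and they share 1 cell line, so the replicates sample the spread between cultures of that line. Because vehicle was sampled at 2 h alone, the TGFβ1 effect at 12 h and the longer time without serum and insulin cannot be told apart. The comparisons ask which genes TGFβ1 changed early, within 2 h, and which after 12 h, when cells of this line are in the course of an epithelial to mesenchymal transition (EMT).

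Tight junctions seal the space between neighboring epithelial cells. Claudins form the strands that meet across that space and set which ions pass, occludin sits in the same strands, JAM-A lies beside them, and ZO proteins tie all of these to the actin cytoskeleton. During EMT, which TGFβ1 drives in mammary epithelium, epithelial cells are known to take their junctions apart, and the transcription factors Snail and Zeb, which bind E-boxes, are known repressors of claudin and occludin genes.

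The 6 libraries held 14705886 to 23786993 counts. Expression is given as CPM, the count scaled to library size after scaling by the TMM factors of edgeR (0.961 to 1.07), so that 1 count was worth 0.0436 to 0.0637 CPM. A gene was tested when it had at least 2 CPM in at least 2 libraries, as 11080 genes did, and was called at an adjusted p under 0.05. Of 8 epithelial markers 6 passed this filter, and their sum lay between 5027 and 5859 CPM in vehicle, 6535 and 6564 at 2 h, and 10400 and 10460 at 12 h, most of it keratins. Krt8 and Krt18 were higher at 12 h than in vehicle (3333 against 1074 CPM and 6191 against 2151 CPM), whereas Krt19 was lower (455 against 1757 CPM). The adhesion gene Cdh1 was at 392 CPM in vehicle and 372 CPM at 12 h, but Epcam, an adhesion protein that stabilizes claudin-7, had 2 to 16 counts in a library and the splicing factor Esrp1 had 1 to 3, so 2 genes that usually define epithelium were at or near 0 in all groups. Summed fibroblast markers (2 of 6 past the filter) went from 3.51 to 4.65 CPM in vehicle to 9.13 to 9.47 at 2 h and 14.8 to 16.0 at 12 h, where Col1a1 alone was at 10.9 CPM, while endothelial markers went from 0.177 to 0.255 CPM in vehicle to 1.74 to 1.95 CPM at 12 h and adipocyte markers reached 0.203 CPM at most. Myoepithelial markers (1 of 5 past the filter) summed to 2.61 to 5.18 CPM in vehicle, 8.91 to 11.8 at 2 h and 5.84 to 9.04 at 12 h, and leukocyte markers (1 of 5) to 4.36 to 6.88 CPM. These levels are given beside all results that follow, and their part in them was not tested. In libraries made from whole cultures, fewer cells with a transcript and less of it per cell cannot be told apart.

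Of the 10 genes, 5 passed the filter: Cldn4, Cldn12, Ocln, Tjp1 and F11r. Cldn4 rose at 2 h and again from 2 h to 12 h, F11r rose by 12 h, and Cldn12 fell at 2 h and returned by 12 h. Tjp1 fell between 2 h and 12 h, and Ocln passed the threshold in no comparison. The claudins Cldn1, Cldn3, Cldn6, Cldn7 and Cldn23 stayed below the filter in all 6 libraries. At 2 h against vehicle, 1 member was called higher and 1 lower, beside 9.91% and 5.25% of all genes tested. At 12 h against vehicle, 2 were called higher, beside 21.8% of all genes. None of the 5 was called lower at 12 h by edgeR, beside 21.5% of all genes, although 1 was lower at an unadjusted p under 0.05, and limma-voom and DESeq2 each called 1 lower, in both cases Tjp1. At 12 h against 2 h, 2 were called higher and 1 lower, beside 15.2% and 18.9%. The median log2FC of the 5 was 0.07, 0.17 and 0.32 in these 3 comparisons, beside −0.01, 0.02 and 0.01 over all genes tested. Cldn4 passed the filter through the treated libraries alone and so had to differ, and all 3 comparisons share libraries, so these counts and medians are a description of the list.

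**Figure D1:**
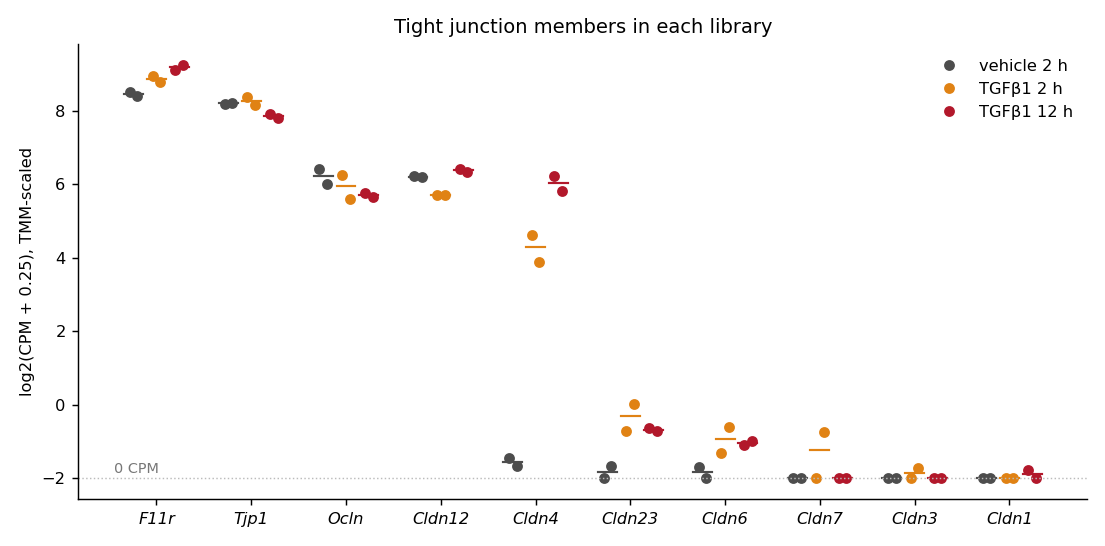
Level of each of the 10 genes in each library, as log2(CPM + 0.25), with a bar at the group mean for vehicle at 2 h, TGFβ1 at 2 h and TGFβ1 at 12 h (2 libraries each, points). The dotted line marks 0 CPM, on or near which Cldn1, Cldn3 and Cldn7 lie, and Cldn4 climbs from 0.0908 to 65.8 CPM while F11r, Tjp1, Cldn12 and Ocln move little on the same axis.

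Cldn4 (Entrez 12740) encodes a claudin that tightens the junction against sodium, and on the mm9 build it lies at chr5:135420996-135422804 on the minus strand. Its counts were 2 and 1 in the vehicle libraries, 484 and 286 at 2 h, and 1728 and 1097 at 12 h. That is 0.118 and 0.0637 CPM, then 24.5 and 14.4 CPM, then 75.3 and 56.4 CPM. Both 2 h libraries lay far above both vehicle libraries, both 12 h libraries lay above both of those, and no groups overlapped. The group means were 0.0908 ± 0.0382, 19.5 ± 7.12 and 65.8 ± 13.4 CPM (SD, n = 2 each). With 3 counts in all of vehicle, the ratio of summed counts per library size was 212 at 2 h (770 counts, 95% exact counting interval 72.2 to 1030) and 725 at 12 h (2825 counts, 248 to 3520). These intervals cover counting error alone. The fitted log2FC, which depends on the prior count at so low a vehicle level, was 7.63 (SE 0.526, adjusted p = 0.000502) at 2 h and 9.39 (SE 0.502, adjusted p = 5.40e-05) at 12 h, and with a prior count of 2 it was 6.64 and 8.39. From 2 h to 12 h, where the lowest library holds 286 counts, Cldn4 rose by a further 1.76 on the log2 scale (SE 0.269, adjusted p = 0.00387). The tests against vehicle are a description, since the filter kept Cldn4 through its treated libraries alone. The log2FC of Cldn4 was above 1 in all 3 comparisons. With that limit added to the adjusted p, 4.23% of all genes were called higher and 2.01% lower at 2 h, 8.03% and 11.6% at 12 h, and 4.5% and 9.87% at 12 h against 2 h.

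The 250 bases before the start of Cldn4 are shown with those of F11r, the other gene of the list called higher at 12 h, and of Cldn3, the claudin gene next to Cldn4, whose reads stayed near 0. They were taken from RefSeq windows (GRCm38.p6 table), each of which matched NCBIM37, the same sequence as mm9, exactly once. Capitals mark matches to TGANTCA, the site of AP-1 factors, and to CAGGTG on either strand (CACCTG when read on the opposite strand), the E-box that Snail and Zeb bind. The windows are chr5:135422805-135423054 on the minus strand for Cldn4, chr1:173367442-173367691 on the plus strand for F11r and chr5:135461834-135462083 on the plus strand for Cldn3.
Cldn4: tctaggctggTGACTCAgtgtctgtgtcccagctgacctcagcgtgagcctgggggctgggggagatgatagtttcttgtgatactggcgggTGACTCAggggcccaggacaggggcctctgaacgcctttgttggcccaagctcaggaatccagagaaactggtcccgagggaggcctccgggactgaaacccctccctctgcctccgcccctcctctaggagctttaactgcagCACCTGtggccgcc
F11r: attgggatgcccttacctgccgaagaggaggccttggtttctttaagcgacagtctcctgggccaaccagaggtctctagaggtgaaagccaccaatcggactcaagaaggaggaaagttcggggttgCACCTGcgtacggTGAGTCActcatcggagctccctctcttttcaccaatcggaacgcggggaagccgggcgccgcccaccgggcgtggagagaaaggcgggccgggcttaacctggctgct
Cldn3: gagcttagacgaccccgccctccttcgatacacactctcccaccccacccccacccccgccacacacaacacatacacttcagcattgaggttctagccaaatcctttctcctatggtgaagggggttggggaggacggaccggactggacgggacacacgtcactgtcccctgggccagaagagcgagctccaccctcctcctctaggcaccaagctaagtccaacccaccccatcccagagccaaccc
The Cldn4 window holds 2 AP-1 matches, 240 and 158 bases before the start, and an E-box match 14 bases before it. A second E-box match lies 12 bases after the start, outside the stretch shown, and 1 match to CAGAC, the core of the SMAD site, lies 231 bases before it. The F11r window holds 1 AP-1 match 109 bases before the start, next to an E-box match 122 bases before it. All these distances count from the RefSeq start, which for F11r lies inside the gene span given for it below. The last bases of the F11r stretch thus fall within that span. The Cldn3 stretch holds no AP-1 or E-box match, and its E-box match lies 32 bases after the start.

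Among all 32851 windows of 300 bases (250 before and 50 after a start, 27025 genes), 7.81% held at least 1 AP-1 match and 0.46% held 2 or more, on both strands together. The E-box was in 20.2% of windows, 2 or more of them in 2.88%, CAGAC in 49.6% and the Grainyhead-like site AACNNGTT in 4.2%. A window was given for 9 of the 10 genes, 13 windows in all. Cldn4 and F11r were the members with an AP-1 match in a window, and none of the 13 windows held AACNNGTT. Cldn4, Cldn6, Cldn7 and Ocln each had a window with 2 E-box matches, and the windows of Cldn12 and Tjp1 held none of the 4 motifs. These matches describe the letters of a window, and binding was not measured in these data.

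F11r (Entrez 16456, chr1:173367666-173394734, plus strand) encodes JAM-A, an immunoglobulin-like receptor that pairs across the cell contact and helps to build the junction. It had 364 and 338 CPM in the vehicle libraries, 490 and 441 CPM at 2 h, and 550 and 612 CPM at 12 h. The 3 groups did not overlap, and the order was vehicle, 2 h, 12 h. Group means were 351 ± 18.7, 465 ± 34.4 and 581 ± 44.1 CPM (SD, n = 2 each). The log2FC at 12 h was 0.73 (SE 0.114, adjusted p = 0.00270), and F11r was called higher there. The differences of 0.41 at 2 h (SE 0.113, adjusted p = 0.0582) and 0.32 from 2 h to 12 h (SE 0.113, adjusted p = 0.0692) did not pass, although DESeq2 called both (adjusted p = 0.0137 and 0.0332).

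Cldn12 (Entrez 64945, chr5:5505109-5514958, minus strand) encodes a claudin that lacks the C-terminal ZO-binding motif of most claudins. It had 74.7 and 72.9 CPM in vehicle, 52.4 and 52.2 CPM at 2 h, and 85.7 and 80.1 CPM at 12 h. Both 2 h libraries were below, and both 12 h libraries above, the vehicle libraries. Against means of 73.8 ± 1.28 CPM in vehicle and 52.3 ± 0.149 CPM at 2 h (SD, n = 2 each), Cldn12 fell by 0.50 on the log2 scale at 2 h (SE 0.0951, adjusted p = 0.0176). The call at 2 h was lost without vehicle replicate 1 (adjusted p = 0.114), without vehicle replicate 2 (0.0885) or without 12 h replicate 2 (0.0505). At 12 h the mean was 82.9 ± 3.96 CPM, a log2FC of 0.17 against vehicle (SE 0.0943, adjusted p = 0.193) and of 0.67 against 2 h (SE 0.0949, adjusted p = 0.00297). The rise from 2 h to 12 h was called in each of the 6 fits that left out a library.

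Tjp1 (Entrez 21872, chr7:72441051-72516125, minus strand) encodes ZO-1, the scaffold that binds claudins, occludin and JAM-A on the inner side of the membrane. It had 293 and 296 CPM in vehicle, 335 and 285 CPM at 2 h, and 241 and 223 CPM at 12 h. The 2 h libraries lay on both sides of vehicle, and both 12 h libraries lay below all others. Tjp1 fell by 0.42 on the log2 scale from 2 h to 12 h (SE 0.115, adjusted p = 0.0319), from 310 ± 35.3 to 232 ± 12.9 CPM (SD, n = 2 each). That call held in 1 of the 6 fits without a library, the one without 2 h replicate 2 (adjusted p = 0.0144), and was lost in the others (up to 0.188). Against the vehicle mean of 294 ± 2.66 CPM the log2FC was 0.07 at 2 h (SE 0.115, adjusted p = 0.713) and −0.34 at 12 h (SE 0.115, adjusted p = 0.0501). The last value sat at the threshold, and limma-voom (adjusted p = 0.0477) and DESeq2 (0.0208) called it, as did edgeR without 2 h replicate 1 (0.0199) or without 2 h replicate 2 (0.0244). The fits without a vehicle library (adjusted p = 0.152 and 0.173) or without a 12 h library (0.120 and 0.230) did not.

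Ocln (Entrez 18260, chr13:101266462-101322673, minus strand) encodes occludin, a strand protein that spans the membrane several times. It had 84.9 and 64.4 CPM in vehicle, 76.3 and 48.2 CPM at 2 h, and 54.1 and 50.04 CPM at 12 h. The 2 h libraries spanned most of the range of all 6, while both 12 h libraries lay below both vehicle libraries. Means were 74.6 ± 14.5, 62.2 ± 19.9 and 52.0 ± 2.84 CPM (SD, n = 2 each), and log2FC was −0.26 at 2 h (SE 0.233, adjusted p = 0.50) and −0.52 at 12 h (SE 0.234, adjusted p = 0.117). The difference from 2 h to 12 h was −0.26 (SE 0.233, adjusted p = 0.428). None of these differences passed the test, but leaving out 2 h replicate 1 gave −0.65 at 2 h (adjusted p = 0.0487), and leaving out 2 h replicate 1 or 2 brought the 12 h difference past the threshold (adjusted p = 0.0200 and 0.0214). Without vehicle replicate 1 the 12 h difference was −0.31 (adjusted p = 0.437), without vehicle replicate 2 it was −0.71 (adjusted p = 0.0965), and without a 12 h library its adjusted p was 0.251 or 0.345. Without 2 h replicate 2 the difference from 2 h to 12 h passed (log2FC −0.55, adjusted p = 0.0490).

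**Figure D2:**
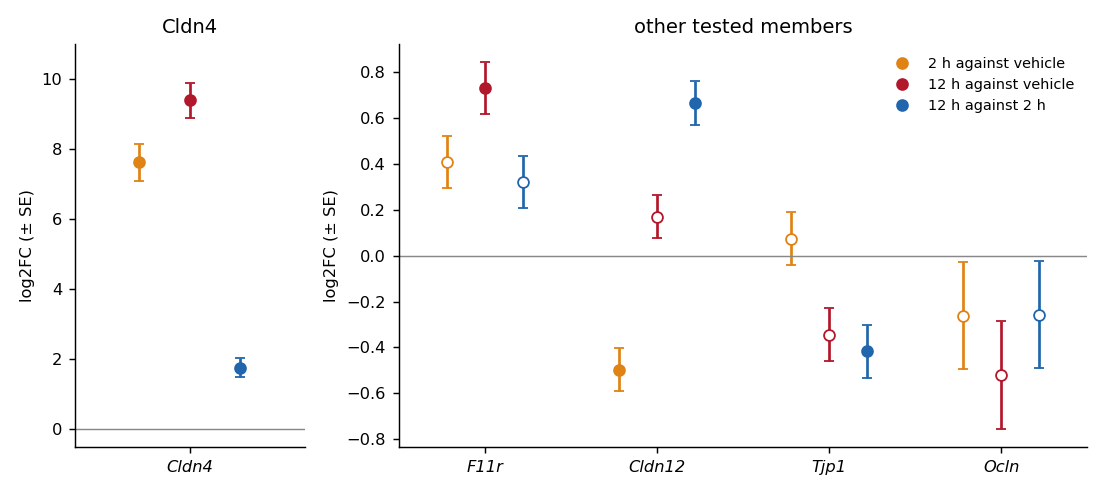
Fitted log2FC (log2 scale) with its standard error for the 5 tested genes, Cldn4 on an axis of its own, in 3 comparisons by color. Filled points are called (adjusted p under 0.05) and open points are not, and the signs of Cldn12 at 2 h and at 12 h against 2 h are opposite.

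The other 5 claudins gave few reads, and 3 counts, which is the upper limit that a count of 0 allows, were worth 0.131 to 0.191 CPM in these libraries. Cldn23 (Entrez 71908, chr8:36887766-36889613, minus strand) had 0 and 1 counts in vehicle, 7 and 15 at 2 h, and 9 and 7 at 12 h. All 4 treated libraries exceeded both vehicle libraries, with ratios of 18.2 at 2 h (95% exact counting interval 2.94 to 750) and 12.3 at 12 h (1.92 to 517). In a fit with no filter on low counts, over 16115 genes, Cldn23 was called at 2 h (log2FC 3.92, SE 1.07, adjusted p = 0.0492) and at 12 h (3.37, SE 1.12, adjusted p = 0.0475). Its level in treated cells stayed at or under 0.757 CPM. Cldn6 (Entrez 54419, chr17:23816332-23819413, plus strand), a claudin of embryonic epithelia, had 1 and 0 counts in vehicle, 3 and 8 at 2 h, and 5 and 5 at 12 h. The same direction gave ratios of 9.08 (1.32 to 391) and 7.70 (1.10 to 334), but the fit without a filter did not call it (adjusted p = 0.21 at 2 h and 0.151 at 12 h).

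Cldn1, Cldn3 and Cldn7 are claudins of many barrier-forming epithelia. Cldn7 (Entrez 53624, chr11:69778281-69781387, plus strand) had 7 counts in 2 h replicate 2 and 0 in each of the other 5 libraries. Cldn3 (Entrez 12739, chr5:135462084-135463342, plus strand) had 1 count in that same library and 0 elsewhere, and 40 bases of its exons overlap Wbscr25 on the opposite strand. Cldn1 (Entrez 12737, chr16:26356728-26371927, minus strand) had 1 count in 12 h replicate 1 and 0 elsewhere. For these 3 genes no change was detectable at this depth.

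Levels of different genes were compared as CPM per kb of exon. In vehicle F11r stood highest at 132 ± 7.02 CPM per kb (SD, n = 2), followed by Tjp1 at 40.0 ± 0.361. Cldn12 at 18.1 ± 0.315 and Ocln at 17.7 ± 3.43 did not differ beyond their spread, and Cldn4 came last of the 5 at 0.0502 ± 0.0211. At 2 h F11r (175 ± 12.9) and Tjp1 (42.1 ± 4.79) kept their places, while Ocln (14.7 ± 4.71), Cldn12 (12.8 ± 0.037) and Cldn4 (10.8 ± 3.94) overlapped. At 12 h F11r was at 218 ± 16.6, Cldn4 at 36.4 ± 7.41 and Tjp1 at 31.5 ± 1.76 CPM per kb. Cldn4 and Tjp1 overlapped in their libraries there, and Cldn12 (20.3 ± 0.971) and Ocln (12.3 ± 0.672) followed without overlap. Cldn4 thus went from a place under the other 4 to one beside Tjp1.

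Of 30 claudin genes counted, 13 had 0 counts in every library and 6 more had at most 3. Only Cldn2, Cldn4 and Cldn12 reached 100 counts in a library. Cldn2, a claudin that forms channels for sodium and water, held 91.4 ± 1.66% of the summed claudin CPM per kb in vehicle, 86.7 ± 1.14% at 2 h and 77.7 ± 1.87% at 12 h (SD, n = 2). The share of Cldn4 went from 0.0217 ± 0.00450% to 5.54 ± 0.754% and 13.7 ± 2.10%, and that of Cldn12 was 8.18 ± 1.69%, 6.89 ± 1.60% and 7.71 ± 0.0297%. The level of Cldn2 itself was not called in any comparison. It had 807 and 572 CPM in vehicle, 649 and 455 CPM at 2 h, and 695 and 668 CPM at 12 h, with a log2FC of −0.32 at 2 h (SE 0.217, adjusted p = 0.375) and −0.02 at 12 h (SE 0.217, adjusted p = 0.958).

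**Figure D3:**
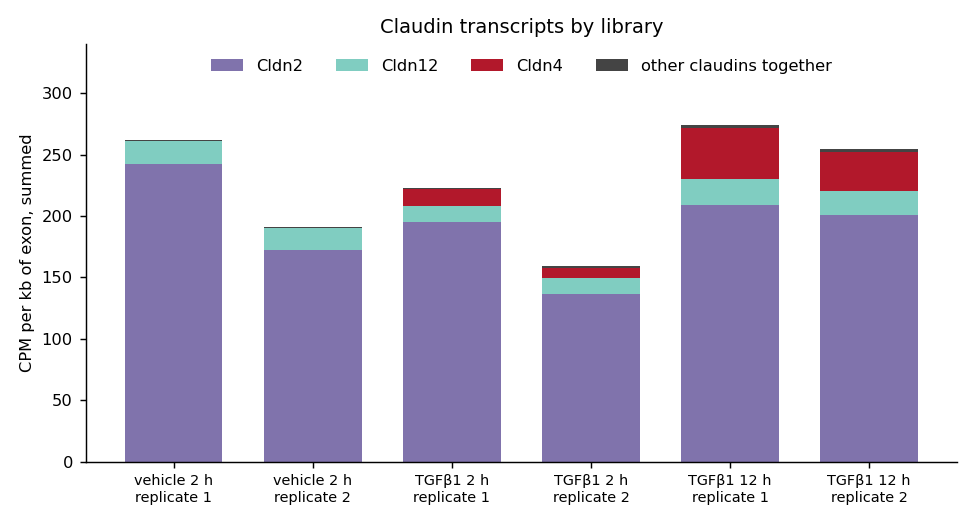
CPM per kb of exon (y axis, from 0) of Cldn2, Cldn12, Cldn4 and all other claudins, stacked to their sum in each of the 6 libraries. As a share of that sum, Cldn4 is under 0.1 percent in both vehicle libraries, 5.00 and 6.07 percent at 2 h, and 12.2 and 15.2 percent at 12 h, where the share of Cldn2 is lowest.

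The wider junction was described by a list of 56 other tight junction genes, of which 25 passed the filter. At 2 h 6 were called higher and 2 lower, at 12 h 8 higher and 8 lower, and at 12 h against 2 h 3 higher and 7 lower. Of all genes tested, 9.91% were called higher and 5.25% lower at 2 h, 21.8% and 21.5% at 12 h, and 15.2% and 18.9% at 12 h against 2 h. Their median log2FC was 0.13, −0.04 and −0.16, beside −0.01, 0.02 and 0.01 over all genes tested. The count called higher at 2 h fell to 2 without vehicle replicate 1 or 2, and to 3 without 12 h replicate 1 or 2. The count called lower at 2 h was 0 by edgeR without vehicle replicate 1 or 2. The count called higher at 12 h was 5 without 12 h replicate 1 and 4 without 12 h replicate 2.

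Among scaffold and plaque genes, Tjp3, which encodes the ZO-1 relative ZO-3, had 14.2 and 13.3 CPM in vehicle, 9.47 and 6.86 CPM at 2 h, and 2.88 and 2.52 CPM at 12 h, where it was lower by a log2FC of −2.35 (SE 0.227, adjusted p = 0.000383). Both 2 h libraries lay below vehicle and both 12 h libraries below those. The plaque protein cingulin (Cgn) fell from 76.9 ± 2.66 CPM in vehicle to 52.0 ± 1.92 at 2 h (log2FC −0.56, adjusted p = 0.0114) and to 46.0 ± 0.434 at 12 h (−0.74, adjusted p = 0.00129). Its paralog paracingulin (Cgnl1) first rose from 419 ± 12.5 to 618 ± 78.3 CPM at 2 h (log2FC 0.56, adjusted p = 0.0277). It was then lower than vehicle at 12 h, at 259 ± 18.2 CPM (−0.69, adjusted p = 0.00476).

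Among membrane proteins, the JAM-A relative Jam2 had 8.54 and 8.03 CPM in vehicle, 17.0 and 19.5 CPM at 2 h, and 33.3 and 50.2 CPM at 12 h, and it was called higher at both times (log2FC 1.14, adjusted p = 0.0193, and 2.33, adjusted p = 0.000378). Jam3 had 0 counts in all 6 libraries. The tricellular junction receptor Lsr rose from 95.9 ± 8.96 to 134 ± 11.6 CPM at 2 h (log2FC 0.48, adjusted p = 0.0361) and to 157 ± 0.0897 CPM at 12 h (0.71, adjusted p = 0.00312). Its relative Ildr2 fell to 26.7 ± 2.29 CPM at 12 h from 102 ± 5.76 in vehicle (log2FC −1.94, adjusted p = 6.67e-05). The occludin relative Marveld2, or tricellulin, was at 11.3 ± 2.83 CPM in vehicle and 8.14 ± 0.690 at 12 h (log2FC −0.47, adjusted p = 0.137), and Marveld3 stayed below the filter.

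Among signaling and trafficking genes of the list, the angiomotin relative Amotl1 had the largest rise at 12 h. It went from 24.2 ± 0.0741 CPM in vehicle to 48.9 ± 3.15 at 2 h and 160 ± 4.70 at 12 h (log2FC 2.72, SE 0.105, adjusted p = 3.16e-05). The exchange factor Arhgef2 (GEF-H1), which cingulin binds and inhibits, rose to 323 ± 5.78 CPM at 2 h and 270 ± 9.58 at 12 h from 148 ± 8.40 in vehicle (log2FC 1.13 and 0.87, adjusted p = 0.00107 and 0.000716). The small GTPase Rab3b had the largest fall of the list, from 22.2 and 13.3 CPM in vehicle to 0.654 and 0.360 CPM at 12 h (log2FC −5.09, SE 0.433, adjusted p = 0.000242). Both 12 h libraries lay under 2 CPM, so the filter kept Rab3b through its vehicle and 2 h libraries alone. Its test at 12 h is therefore a description, like that of Cldn4 against vehicle.

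**Figure D4:**
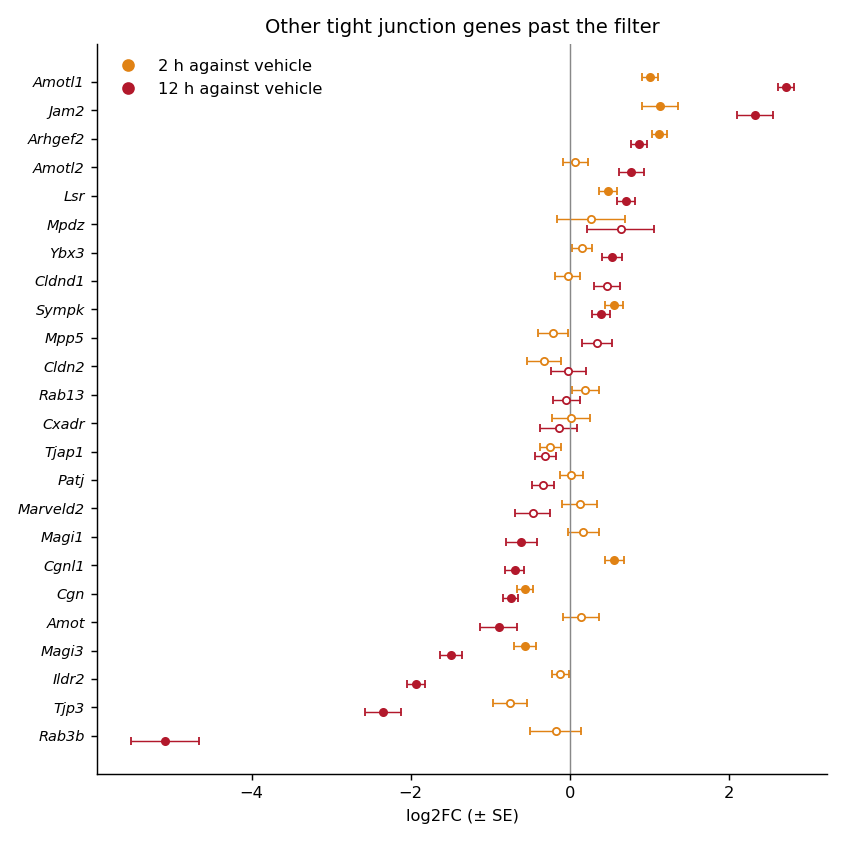
Fitted log2FC (log2 scale) at 2 h and at 12 h against vehicle, with standard errors, for tested genes of the list of other tight junction genes. Filled points are called and open points are not. Amotl1 and Jam2 lie highest at 12 h, and Rab3b at −5.09 and Tjp3 at −2.35 lie lowest.

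The study concerns neighboring genes that respond together, so the genes beside each member in the order of transcription start sites were read from the same fit. None of the 3 tested genes within 4 places of Cldn4 was called higher. Mettl27, with a start 14.6 kb away, had 88.4 ± 3.24 CPM in vehicle, 91.2 ± 5.56 at 2 h and 84.6 ± 1.37 at 12 h (SD, n = 2) and was not called at either time (log2FC 0.04 and −0.06, adjusted p = 0.798 and 0.636). Cldn3, with a start 39.3 kb away on the other side, stayed near 0 as given above, and Cldn13, 31.4 kb away, had no count in any library. Beyond them, Abhd11 at 62.2 kb was not called either (log2FC −0.01 and 0.31, adjusted p = 0.966 and 0.153), and Abhd11os at 66.3 kb, with 1.65 CPM in vehicle, was called lower at 12 h (log2FC −1.30, adjusted p = 0.0439).

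Over all 10 members, the positions up to 2 places away held 36 genes that are not members, of which 22 were tested. At 2 h 6 of these were called higher, and at 12 h 7 higher and 2 lower, beside 9.91% of all genes called higher at the first time, and 21.8% called higher and 21.5% called lower at the second. The next genes that were called lay beside Cldn6, Cldn23 and Tjp1. Tnfrsf12a, the receptor of the cytokine TWEAK, starts 1.92 kb from Cldn6 and rose from 161 ± 35.5 CPM in vehicle to 425 ± 102 at 2 h and 592 ± 10.7 at 12 h (log2FC 1.40 and 1.88, adjusted p = 0.00708 and 0.000715). Cldn23 lies between Mfhas1, 239 kb away (log2FC 1.41 and 1.67, adjusted p = 0.00187 and 0.000269), and Prag1, 268 kb away (1.54 and 0.67, adjusted p = 0.000630 and 0.00391). Tjp1 has Tarsl2 274 kb away, which was not called at 2 h (log2FC −0.40, adjusted p = 0.0636) and fell at 12 h (−1.26, adjusted p = 0.000342). Mfhas1, Prag1 and Tarsl2 start farther away than the distance over which the paper reports significant co-regulation around a regulated gene. The tested genes next to F11r, Ocln, Cldn12, Cldn7 and Cldn1 were not called at 2 h or at 12 h.

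**Figure D5:**
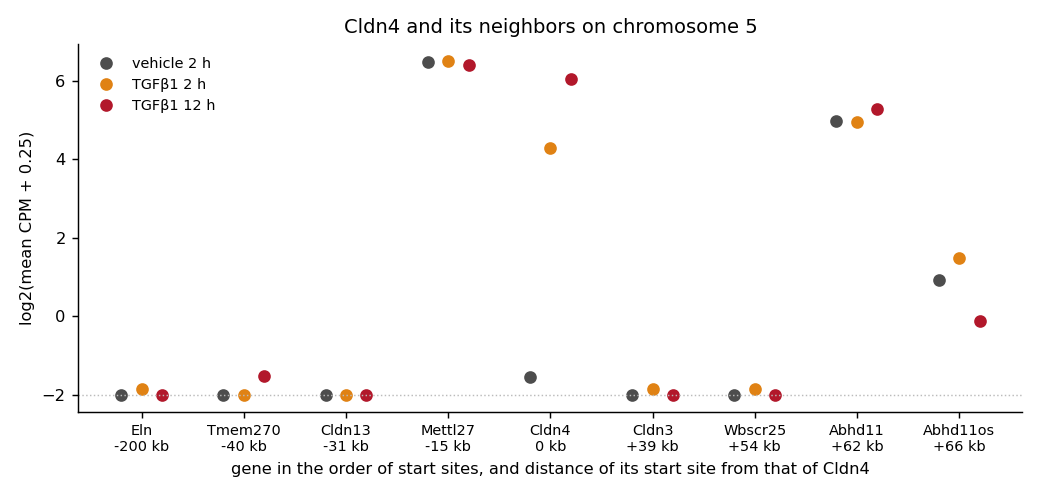
Group means as log2(mean CPM + 0.25) for Cldn4 and the 4 genes on each side of it, ordered by start site, with the distance of each start from that of Cldn4 in kb. The dotted line marks 0 CPM, and Cldn4 moves from near that line to 65.8 CPM while Mettl27 and Abhd11 stay within 0.31 of vehicle on the log2 scale.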

How the data were processed

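Stranded total RNA of 6 NMuMG libraries was sequenced. Per the paper's methods, the authors filtered reads, aligned them to mm9 with subjunc, kept unique reads, removed duplicates with SAMtools 0.1.19 and counted reads on exons by strand with featureCounts. The deposited values are raw counts of 21240 genes, with no normalization, checked to be whole numbers. Duplicate removal on single-end reads can lower the counts of highly expressed genes most.

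Groups came from the labels. Counts were tested in R 4.3.3 with edgeR 4.0.16 by its quasi-likelihood F test, two-sided, with TMM factors, in 1 fit of 3 groups. The fit took genes that reached 2 CPM in 2 or more libraries, and p-values were adjusted by Benjamini-Hochberg within each comparison over 11080 genes. Each adjusted p is of that test unless another tool is named. A SE is the absolute log2FC divided by the square root of F. Levels per kb use merged GENCODE exons on NCBIM37, where 626 counted genes had no position. For genes with 1 to 3 counts in a group, ratios of summed counts have 95% exact intervals. Group spread rests on 2 libraries. In counts simulated at these depths, 73.5% of 200 genes with an absolute log2FC of 1 were called at 2 h and 72.5% at 12 h, among 11080.

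The members and lists were chosen with earlier results of these data known. Genes named were all 10 members, the 3 highest and 3 lowest called genes of the other tight junction list at 12 h, 8 fixed genes of that list (Tjp3, Cgn, Cgnl1, Marveld2, Marveld3, Jam2, Jam3 and Lsr), called next neighbors of members, and the 3 tested genes most like the members with the largest and the smallest log2FC at 12 h. Cldn2, Mettl27, Abhd11, Cldn13 and Wbscr25 were named after their values were seen, as was Abhd11os. Another fixed gene of that list is not reported here, although counts over the list include it.

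Alternatives were limma-voom (limma 3.58.1, the tool of the study), DESeq2 1.42.0, its size factors in edgeR, total counts, a filter of 10 counts per library, no filter at all, fits of only 2 groups, a replicate block, a larger prior count, removal of single libraries (the lone partner assumed to vary like the other groups), and a log2FC limit. Figures were drawn with matplotlib 3.10.9 from Python 3.11.15.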

Additional observations from a re-analysis of the deposited data

Results flagged for a closer look

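For 3 members the level at 12 h of TGFβ1 differed from that at 2 h by the direct test of the 2 times (12 h against 2 h, edgeR, called at an adjusted p under 0.05). With no vehicle at 12 h, the time under TGFβ1 and the time without serum and insulin cannot be told apart in it. Cldn4 was higher at 12 h than at 2 h by a log2FC of 1.76, both 12 h libraries above both 2 h libraries. Cldn12 was higher by 0.67, also without overlap. Tjp1 was lower at 12 h, with a log2FC of −0.42, again without overlap of the 2 libraries of each group, and its call was lost when most single libraries were left out.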

How the results depend on the processing

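The calls of Cldn4 in all 3 comparisons, of F11r at 12 h and of Cldn12 from 2 h to 12 h were upward under every alternative in which the gene was tested and no log2FC limit was set. Those of Cldn4 against vehicle remain a description, since the filter of the main fit kept it through its treated libraries alone. At least 10 counts in every library removed Cldn4, so that members called higher came to 0, 1 and 1 (2 h, 12 h, 12 h against 2 h) in place of 1, 2 and 2. An absolute log2FC above 1 left 1 called higher at 12 h and 1 at 12 h against 2 h, and 0 called lower at 2 h and 0 at 12 h against 2 h in place of 1 each. Members called higher at 2 h were 2 with DESeq2, with no filter and with the replicate block. Members called lower at 12 h, 0 in the fit reported, were 1 with limma-voom, DESeq2, DESeq2 size factors and at least 10 counts, and 2 with total counts, only the 2 groups compared and the replicate block. With only the 2 groups compared, members called lower were 0 at 2 h (Cldn12 at an adjusted p of 0.0528) and 0 at 12 h against 2 h. With a library left out, members called lower ranged from 0 to 2 in each comparison.

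Of the other tight junction genes, only the 2 groups compared gave 3 higher and 1 lower at 2 h. The log2FC limit gave 3 higher against 0 lower at 2 h, then 2 higher against 4 lower at 12 h. At 12 h against 2 h DESeq2 gave 5 higher and the replicate block 6. Leaving out a library gave 2 to 6 higher and 0 to 3 lower at 2 h, 4 to 9 higher at 12 h, and 2 to 5 higher at 12 h against 2 h. Directions turned for 3 values that were not called with all 6 libraries: with a library left out, the log2FC of Ocln at 2 h ran from −0.6494 (called, without 2 h replicate 1) to 0.0312 (without 2 h replicate 2), that of Ocln at 12 h against 2 h from −0.5513 (called, without 2 h replicate 2) to 0.1131 (without 2 h replicate 1) and that of Tjp1 at 2 h from −0.0654 (without 2 h replicate 1) to 0.1853, and Tjp1 at 2 h was −0.0396 with total counts. Total counts moved the median log2FC of all genes to −0.12 at 2 h and −0.11 at 12 h. Apart from what the fewer genes or stricter rules explain by construction, the cause was not tested.

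The labels give replicate numbers without a shared batch, so the numbers were not taken to pair the libraries. Deviations of same-numbered libraries correlated at 0.708 (vehicle and 2 h), 0.263 (vehicle and 12 h) and 0.392 (2 h and 12 h). With the replicate block F11r was also called at 2 h (adjusted p = 0.0195) and from 2 h to 12 h (0.0318), and Tjp1 (0.0145) and Ocln (0.00936) were called lower at 12 h. With 1 count worth up to 0.0637 CPM, Cldn1, Cldn3, Cldn6, Cldn7 and Cldn23 are limited by depth.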

Other observations

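Among all genes tested, those whose log2(CPM + 0.25) over the 6 libraries ran most like that of Cldn4 were the kinase gene Nuak1 (Pearson r = 0.997, log2FC 2.36 at 2 h and 3.15 at 12 h), the Rab11 effector gene Rab11fip5 (r = 0.997, 2.20 and 2.93) and the collagen-binding integrin gene Itga2 (r = 0.997, 1.91 and 2.40). A total of 452 genes, 4.08% of those tested, had an r above 0.95 with Cldn4, so such a likeness was common. For Ocln, the member with the smallest log2FC at 12 h, they were Igf2bp3 (r = 0.999), Sumf1 (r = 0.988) and Yipf6 (r = 0.987), and 63 genes, 0.569%, had an r above 0.95. The 6 points of each r share their libraries and 3 groups, and the values are a description.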
